A study of Rattus norvegicus with 12 samples.

Results

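The genes of prostaglandin synthesis, reception and breakdown were examined in ovarian RNA of a rat model of polycystic ovary syndrome (PCOS). The set held 10 listed names, chosen by their known roles but with earlier results of these data known: Pla2g4a, Ptgs1, Ptgs2, Ptges, Ptgds, Ptgis, Ptgfr, Ptger2, Ptger4 and Hpgd. In the deposited table of 19730 genes, 9 of the 10 names were found as gene names, 1 gene each, and Ptgis was not analysed here because no row carried that name. Of the 9 genes, 8 passed a filter of a mean of at least 1 FPKM over the 12 libraries and entered the test across genes. Ptgs2, with a mean of 0.298 FPKM, did not, and Ptger2, with 1.18 FPKM, passed mainly through its control values. FPKM scales the sequenced fragments of a gene to its length and to the total of mapped fragments, so that levels of different genes can be set side by side.

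All 12 rats were wild type Sprague Dawley females of post natal week 15, and each gave 1 library of whole ovary. The 4 rats of the control group were untreated and ate standard food, and the sources used here name no vehicle for them. The 4 rats of the PCOS group had received letrozole, an inhibitor of the aromatase that turns androgens into estrogens, at 1 mg/kg/day by mouth together with a high-fat diet (HFD) for 30 days. The 4 rats of the PCOS-MV group had received the same letrozole and HFD and then mogroside V (MV), a sweet triterpene glycoside of the monk fruit, at 600 mg/kg/day by gavage for 30 days. The preparation, dissolved in saline, was only in part mogroside V, and the sources used here describe no matching gavage of the PCOS group. MV therefore cannot be told apart from the gavage, the saline or the rest of the preparation. Letrozole and HFD were always given together and cannot be told apart, rats entered the model after vaginal smears showed a stalled cycle, and the cycle stage at sampling is not given in the sources used here.

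Prostaglandins are local lipid signals. Phospholipase A2 enzymes release arachidonic acid from membranes, the cyclooxygenases Ptgs1 and Ptgs2 turn it into prostaglandin H2, and terminal synthases make the individual prostaglandins, which act on receptors at the cell surface until they are taken up and oxidised by Hpgd. In the ovary, the preovulatory surge of luteinizing hormone (LH) induces Ptgs2 in granulosa cells, prostaglandin E2 acting through Ptger2 and Ptger4 is needed for cumulus expansion and follicle rupture, and prostaglandin F2α acting through Ptgfr brings about the regression of the corpus luteum. In the rodent corpus luteum that signal also raises 20α-hydroxysteroid dehydrogenase, which inactivates progesterone.

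The sequence just before the transcription start is shown for the genes on which the comparisons turn. RefSeq promoter windows of the GRCr8 assembly, 300 bases each, were found for 9 of the 9 genes, and the 250 bases upstream of the start are printed 5′ to 3′ on the strand of the gene. Capitals mark exact matches, on either strand, to the letters searched. These were TGACGTCA (the cyclic AMP response element) and its core TGACG, the E-boxes CACGTG and CATGTG, CAAGGTCA (a site of steroidogenic factor 1), TATAAA (the TATA box) and GGGCGG (the GC box). The windows are Hpgd at chr16:39034832-39035081 on the minus strand, Ptgfr at chr2:243425624-243425873 on the minus strand and Ptgs2 at chr13:64713813-64714062 on the plus strand.
Hpgd: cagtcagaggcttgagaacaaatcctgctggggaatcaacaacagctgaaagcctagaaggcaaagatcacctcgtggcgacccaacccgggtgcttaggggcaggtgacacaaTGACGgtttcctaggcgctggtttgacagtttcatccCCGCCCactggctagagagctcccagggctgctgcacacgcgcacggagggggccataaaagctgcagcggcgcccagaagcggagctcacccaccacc
Ptgfr: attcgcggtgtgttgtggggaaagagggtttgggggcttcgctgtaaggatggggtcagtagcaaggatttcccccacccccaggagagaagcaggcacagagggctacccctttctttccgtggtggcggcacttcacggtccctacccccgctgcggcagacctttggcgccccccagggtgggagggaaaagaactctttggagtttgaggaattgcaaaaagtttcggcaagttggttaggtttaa
Ptgs2: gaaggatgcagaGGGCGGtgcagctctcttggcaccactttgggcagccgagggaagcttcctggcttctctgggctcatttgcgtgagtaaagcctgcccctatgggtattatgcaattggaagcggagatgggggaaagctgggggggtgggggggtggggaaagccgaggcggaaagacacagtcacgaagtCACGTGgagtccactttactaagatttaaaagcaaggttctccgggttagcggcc

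With the first transcribed base as position 1, Hpgd held the core TGACG at position -136 and a GC box at -99, and a CACGTG lay downstream of its start at position 23. Ptgs2 held CACGTG at position -55 and a GC box at -238. No searched letters occurred in the Ptgfr window. Of all 33469 rat promoters in the RefSeq table, 21.2% held TGACG, 6.42% held CACGTG and 33.1% held GGGCGG, while TGACGTCA, in 0 of the 9 genes, was in 1.83%. Pla2g4a was the gene with TATAAA, in 14.2% of all promoters, and with CATGTG, in 14.0%, and CAAGGTCA, in 1.52% of all, was in none of the 9. These matches describe the letters of the windows and nothing about the binding of a factor.

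In the coordinates of the deposited table, whose genome build is not given in the sources used here, Ptgs2 (ENSRNOG00000002525) lay on the plus strand of chromosome 13 at 67351087 to 67359335. Pla2g4a (ENSRNOG00000002657) lay on the minus strand of the same chromosome at 66988937 to 67206693, so that the 2 genes are separated by 144.4 kb. Ptgfr (ENSRNOG00000046468) lay on chromosome 2 at 257005829 to 257038105, and Hpgd (ENSRNOG00000010610) on chromosome 16 at 37457135 to 37495758, both on the minus strand.

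Summed FPKM ranged from 339830 to 373758 per library, and 17576 to 18247 genes were above 0. The table gives no read counts. The spacing of its lowest values implied 30200000 to 36900000 fragments per library, as an approximation only. Markers of luteal, granulosa and theca cells were above 0 in every library (6 of 7, 9 of 9 and 5 of 5 listed markers found). One library stood apart. In Control replicate 3, the summed level of 5 of 5 markers of surface epithelium and mesothelium was 180 FPKM against 5.52 to 72.7 FPKM in the other 11 libraries, and the sum of 3 of 5 oviduct markers was 21.1 FPKM against 2.14 to 3.70 FPKM. Its smooth muscle markers, 6 of 6 found, summed to 978 FPKM against 341 to 716 FPKM. The 9 genes are therefore also given without it where it enters, and the counts of the gene lists once.

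In the control ovary, Ptgfr was the most abundant of the 9 transcripts, with a mean of 97.0 FPKM, followed by Ptges with 32.1, Hpgd with 11.6, Ptgds with 5.66, Ptger4 with 5.33, Ptgs1 with 4.88, Pla2g4a with 3.37, Ptger2 with 1.83 and Ptgs2 with 0.575 FPKM. The ranges of Ptgfr and Ptges overlapped in the control group, as did those of Hpgd and Ptgds, whereas Ptges and Hpgd did not overlap. In the PCOS ovary, Hpgd moved to the first place with 61.9 FPKM and did not overlap with Ptges, second at 30.7 FPKM, while Ptgfr came next at 20.99 FPKM and overlapped with both Ptges and Ptgds. In the PCOS-MV ovary, Ptgfr was first again at 91.2 FPKM, above every value of Ptges, and Ptges and Hpgd overlapped. Ptgs1 was more abundant than Ptgs2 in every library, by 3.55 to 39.5 times in the control group, 17.7 to 20.01 times in the PCOS group and 25.9 to 51.8 times in the PCOS-MV group.

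**Figure D1:**
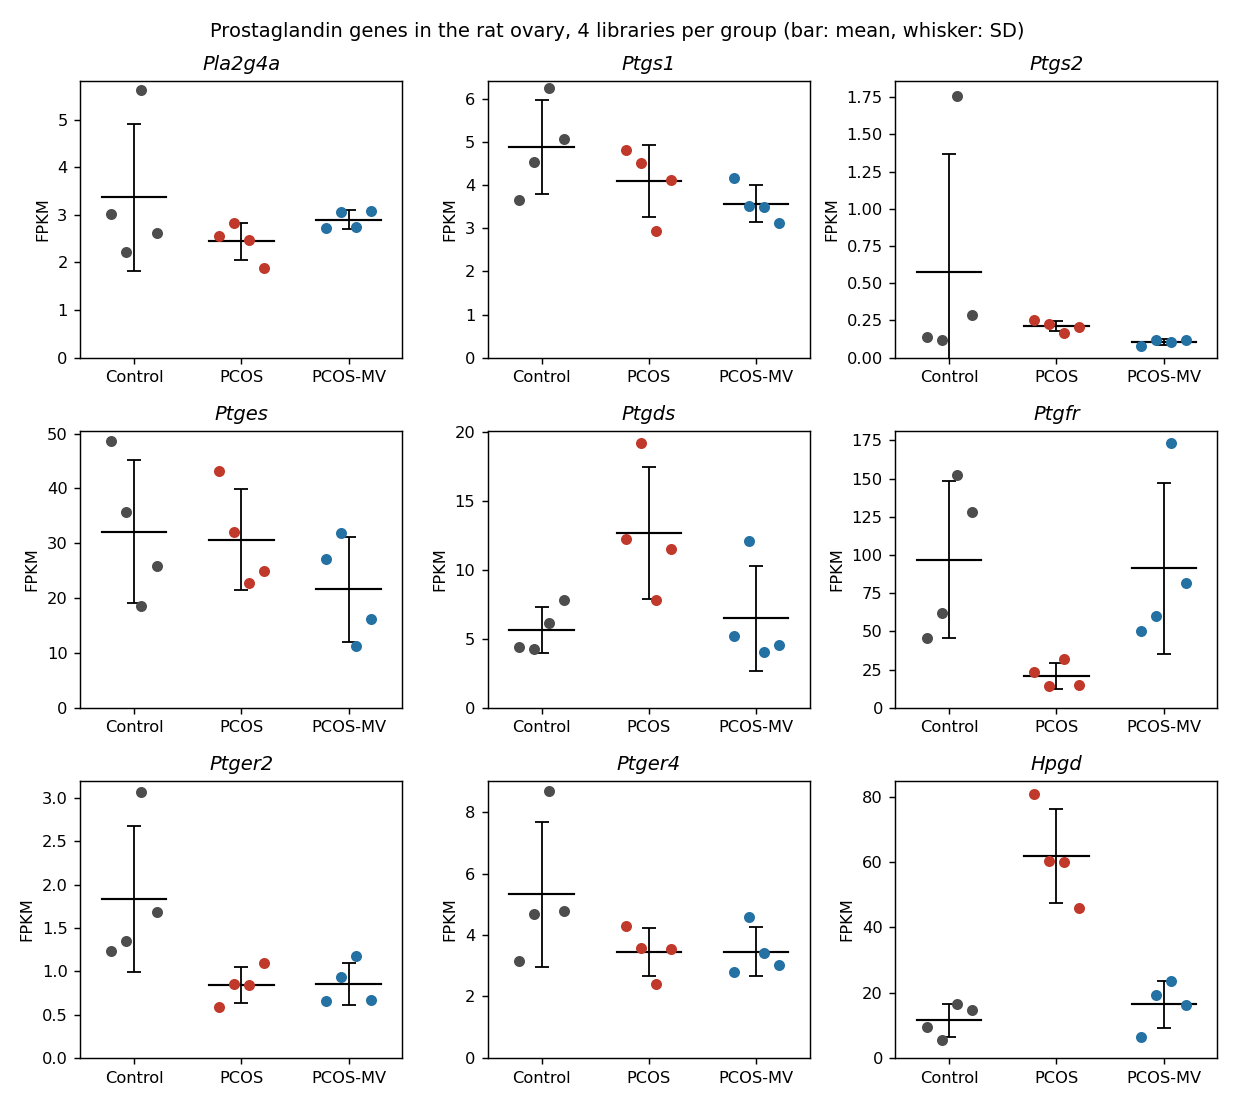
FPKM of the 9 prostaglandin genes in each library, with the 3 groups along the x axis (4 points per group; the horizontal bar is the mean and the whisker the SD, cut at 0 for Ptgs2 in the control group). Hpgd was higher and Ptgfr lower in the PCOS group than in either other group without overlap, and Control replicate 3 gave the highest value of Ptgs2 at 1.76 FPKM.

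The first comparison asked how the letrozole and HFD model differed from untreated ovaries. Hpgd was 5.36-fold higher and Ptgds 2.24-fold higher in the PCOS group, and Ptgfr was 4.62-fold lower, as ratios of mean FPKM. These were 3 of the 8 genes tested, or 37.5%, beside 27.4% of the 13430 genes tested overall. By direction, 2 of the 8 rose, where 11.9% of all genes did, and 1 fell, where 15.6% did. The median log2 fold change of the 8 genes was -0.25, against -0.03 over all genes. Pla2g4a, Ptgs1, Ptges and the receptors of prostaglandin E2 did not pass the test, and Ptgs2 was under the filter. In whole ovary, fewer cells of a type and less RNA per cell cannot be told apart.

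Pla2g4a, the cytosolic phospholipase A2 that responds to calcium, ranged from 2.22 to 5.62 FPKM in the control group and from 1.89 to 2.83 FPKM in the PCOS group, with a log2 fold change of -0.29 (95% interval -0.79 to 0.20, adjusted p = 0.353). Ptgs1, the constitutive cyclooxygenase, ranged from 3.65 to 6.25 FPKM and from 2.94 to 4.82 FPKM in the same groups, with a log2 fold change of -0.20 (-0.58 to 0.17, adjusted p = 0.395). For both genes the groups overlapped and the interval included 0. Without Control replicate 3 the log2 fold changes were -0.07 for Pla2g4a (adjusted p = 0.706) and -0.10 for Ptgs1 (adjusted p = 0.677).

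Ptgs2, the inducible cyclooxygenase, was at 0.141, 0.115, 1.76 and 0.284 FPKM in control libraries 1 to 4 and at 0.251, 0.226, 0.166 and 0.208 FPKM in PCOS libraries 1 to 4. The PCOS values lay within the range of the control values, and the control mean of 0.575 ± 0.793 FPKM (SD, n = 4) was set by replicate 3. The exact two-sided permutation test gave p = 0.743, where 0.0286 is the smallest p that 4 against 4 libraries allow. Without Control replicate 3 the control mean was 0.180 ± 0.0910 FPKM (SD, n = 3) and the exact p was 0.514. The implied support was about 245 fragments in Control replicate 3 and about 11.9 to 41.1 fragments in each other library, so that small differences in Ptgs2 are uncertain at this depth.

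Ptges, the inducible terminal synthase of prostaglandin E2, was at 48.6, 35.6, 18.6 and 25.8 FPKM in control libraries 1 to 4 and at 43.1, 32.0, 22.7 and 24.9 FPKM in PCOS libraries 1 to 4. The groups covered nearly the same range. The log2 fold change was -0.02 (95% interval -0.70 to 0.66, adjusted p = 0.963), and its sign turned under 2 of the other scalings, to 0.01 with median ratio scaling and 0.03 with quantile normalization. Without Control replicate 3 it was -0.25 (adjusted p = 0.511).

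Ptgds, a lipocalin that makes prostaglandin D2, was at 4.43, 4.27, 6.11 and 7.83 FPKM in control libraries 1 to 4 and at 12.2, 19.2, 7.78 and 11.5 FPKM in PCOS libraries 1 to 4. The PCOS values were higher apart from the lowest of them, which lay just under the highest control value. Ptgds rose by 1.01 on the log2 scale (SE 0.26, 95% interval 0.42 to 1.598, adjusted p = 0.0204), and the exact permutation test gave p = 0.0571. The call was lost without Control replicate 2 (log2 fold change 0.91, adjusted p = 0.0573) and kept without Control replicate 3 (1.05, adjusted p = 0.0287).

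Ptgfr, the receptor of prostaglandin F2α, was at 45.7, 61.9, 152 and 128 FPKM in control libraries 1 to 4. It was at 23.6, 13.9, 31.8 and 14.6 FPKM in PCOS libraries 1 to 4. Every PCOS value lay under every control value, and the control values themselves formed a lower and a higher pair. Ptgfr fell by 2.07 on the log2 scale (SE 0.41, 95% interval -3.01 to -1.12, adjusted p = 0.00683; exact permutation p = 0.0286, the smallest possible). Without Control replicate 3 it fell by 1.80 (adjusted p = 0.0114).

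Ptger2 and Ptger4, the receptors of prostaglandin E2 that raise cyclic AMP, were both lower on average in the PCOS group without passing the test across genes. Ptger2 was at 1.24, 1.35, 3.07 and 1.68 FPKM in control libraries 1 to 4 and at 0.583, 0.849, 0.844 and 1.09 FPKM in PCOS libraries 1 to 4. Its groups did not overlap (exact permutation p = 0.0286), and its log2 fold change was -0.59 (95% interval -1.05 to -0.13, adjusted p = 0.0617), with -0.40 (adjusted p = 0.0584) without Control replicate 3, the highest library. Ptger2 entered the test across genes mainly through its control values, which favours a lower PCOS level. No conclusion is therefore drawn from its tests. Ptger4 ranged from 3.16 to 8.69 FPKM in the control group and from 2.41 to 4.29 FPKM in the PCOS group, with a log2 fold change of -0.46 (-1.02 to 0.11, adjusted p = 0.207), and of -0.23 (adjusted p = 0.373) without Control replicate 3.

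Hpgd, the NAD-dependent 15-hydroxyprostaglandin dehydrogenase that starts prostaglandin breakdown, was at 9.42, 5.56, 16.5 and 14.7 FPKM in control libraries 1 to 4. In PCOS libraries 1 to 4 it was at 81.1, 60.5, 59.97 and 46.1 FPKM. The lowest PCOS value was above the highest control value by more than the whole control range. Hpgd rose by 2.40 on the log2 scale (SE 0.31, 95% interval 1.70 to 3.09, adjusted p = 0.000709; exact permutation p = 0.0286), and by 2.59 (adjusted p = 0.000579) without Control replicate 3. The ratio of Ptgfr to Hpgd FPKM within a library was 4.85 to 11.1 in the control group and 0.230 to 0.530 in the PCOS group.

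Markers of several ovarian cell types moved in the same comparison, and their part in the changes of Hpgd, Ptgfr and Ptgds was not tested. The summed FPKM of 5 of 5 theca and interstitial markers was 113 to 152 in the control group and 1695 to 3182 in the PCOS group, with 3 markers higher, led by Insl3 and Cyp17a1, and 1 lower. The sum of 6 of 7 luteal markers was 4130 to 7972 in the control group and 1799 to 3468 in the PCOS group, with 1 higher and 3 lower. Granulosa markers (9 of 9) summed to 728 to 1005 and 1135 to 1640 FPKM, with 4 higher and 0 lower, and 5 of 6 endothelial markers summed to 89.2 to 113 and 57.9 to 72.6 FPKM, with 1 higher and 4 lower. No marker of these 4 lists was at 0 in any library. Stroma markers (6 of 6) summed to 886 to 1439 and 806 to 898 FPKM, with 1 higher and 3 lower. Adipocyte markers (5 of 5) summed to 14.1 to 59.7 FPKM in the control group and 2.49 to 6.72 FPKM in the PCOS group, with 3 of the 3 tested lower and 2 of the 5 at 0 in some library. Cidec, among these 3, had means of 3.03 FPKM in the control and 0.109 FPKM in the PCOS group. It passed the filter only through the control group, so its call is no evidence of a change. The theca and interstitial count without Control replicate 3 was 4 higher and 0 lower, and the granulosa count 4 higher and 1 lower. Mast cell markers (5 of 5) summed to 1.56 to 3.33 FPKM in the control group and 0.151 to 0.515 FPKM in the PCOS group, and 3 of them were at 0 in some library. Leukocyte markers (5 of 6) summed to 55.4 to 73.6 and 65.3 to 75.0 FPKM, with 2 higher and 0 lower. Within the control group, luteal marker sums were 7972, 6923, 4130 and 4975 FPKM in libraries 1 to 4, highest in the pair of libraries where Ptgfr was lowest. That order did not recur in PCOS-MV libraries 1 to 4, with sums of 6881, 2913, 6231 and 2888 FPKM, where replicate 3 held the most Ptgfr.

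The second comparison asked how ovaries differed when MV followed the model. It shares its PCOS libraries with the first, so a chance deviation of those 4 libraries enters both. In the PCOS-MV group Hpgd was 3.77-fold lower and Ptgfr 4.35-fold higher than in the PCOS group, as ratios of mean FPKM. These were 2 of the 8 genes tested, or 25.0%, beside 25.7% of all 13430 genes, a share near the background. Of the 8 genes 1 rose, where 14.3% of all genes did, and 1 fell, where 11.4% did. The median log2 fold change of the 8 genes was -0.07, against 0.03 over all genes.

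Hpgd was at 6.496, 19.3, 23.7 and 16.3 FPKM in PCOS-MV libraries 1 to 4. All of these were under every PCOS value. Hpgd fell by 1.95 on the log2 scale (SE 0.35, 95% interval -2.75 to -1.16, adjusted p = 0.00499; exact permutation p = 0.0286). Ptgfr was at 50.3, 60.2, 173 and 81.5 FPKM in the same libraries. All were above every PCOS value, and replicate 3 was the highest of the 12 libraries. Ptgfr rose by 1.98 on the log2 scale (SE 0.40, 95% interval 1.06 to 2.89, adjusted p = 0.00859; exact permutation p = 0.0286). The ratio of Ptgfr to Hpgd was 3.12 to 7.74 in the PCOS-MV group.

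Both genes passed the test in 8 of 8 fits that left out 1 library in each of the first 2 comparisons. For Hpgd, the log2 fold change ran from 2.12 to 2.59 between PCOS and control and from -2.16 to -1.59 between PCOS-MV and PCOS. For Ptgfr it ran from -2.37 to -1.80 and from 1.61 to 2.20.

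Ptgds was at 5.19, 12.1, 4.07 and 4.55 FPKM in PCOS-MV libraries 1 to 4. The second library lay within the PCOS range and the other 3 lay under it. The log2 fold change was -0.92 (95% interval -1.69 to -0.15, adjusted p = 0.0794; exact permutation p = 0.0857), and without PCOS-MV replicate 2 it was -1.23 and passed the test (adjusted p = 0.0142). Ptges was at 27.2, 31.8, 11.2 and 16.1 FPKM in those libraries, overlapping with the PCOS group, with a log2 fold change of -0.55 (-1.29 to 0.19, adjusted p = 0.250).

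Ptgs2 was at 0.0805, 0.121, 0.106 and 0.120 FPKM in PCOS-MV libraries 1 to 4, a mean of 0.107 ± 0.0188 FPKM (SD, n = 4) against 0.213 ± 0.0358 FPKM (SD, n = 4) in the PCOS group. These values, each from about 11.9 to 18.3 implied fragments, lay under all PCOS values (exact permutation p = 0.0286). When low genes were kept in the fit across genes, the log2 fold change was -0.13 with an adjusted p of 0.0110. The ratio of the means was 1.99, at levels far under those of Ptgs1 and from few fragments, so that its size is uncertain.

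The remaining genes did not pass the test. Pla2g4a ranged from 2.72 to 3.07 FPKM in the PCOS-MV group (log2 fold change 0.19, 95% interval -0.05 to 0.42, adjusted p = 0.220) and Ptgs1 from 3.11 to 4.17 FPKM (-0.15, -0.45 to 0.16, adjusted p = 0.468). Ptger2 was at 0.662, 0.932, 1.17 and 0.672 FPKM in PCOS-MV libraries 1 to 4, among the PCOS values, with a log2 fold change of 0.01 (-0.28 to 0.30, adjusted p = 0.959). Ptger4 ranged from 2.80 to 4.58 FPKM, and its log2 fold change was 0.00 (-0.37 to 0.38, adjusted p = 0.996). The directions of Ptger2 and Ptger4 are not given, since they turned with the scaling.

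Cell type markers moved here too, and their part in the changes of Hpgd and Ptgfr was not tested. In the PCOS-MV group, theca and interstitial markers summed to 107 to 192 FPKM, with 4 of 5 lower than in the PCOS group. Luteal markers summed to 2888 to 6881 FPKM, overlapping with the PCOS range, with 1 of 6 higher and 1 lower. Granulosa markers summed to 646 to 1194 FPKM, with 3 of 9 lower. Endothelial markers summed to 79.3 to 105 FPKM, with 2 of 5 higher. Leukocyte markers summed to 65.5 to 84.1 FPKM, with 1 of 5 higher and 2 lower. Stroma markers summed to 796 to 1383 FPKM, with 2 of 6 higher and 1 lower, and adipocyte markers to 4.72 to 35.7 FPKM, with 1 of the 3 tested higher. Fabp4 made up most of that rise, with means of 2.15 FPKM in the PCOS and 19.7 FPKM in the PCOS-MV group. The means of the other adipocyte markers stayed low in these 2 groups, namely Adipoq (1.52 and 1.27 FPKM), Plin1 (0.121 and 0.124), Cidec (0.109 and 0.127) and Lep (0.0459 and 0.0261).

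The third comparison set the PCOS-MV group beside the untreated control group. Of the 8 genes, 0 passed the limma test, and of all 13430 genes 1 did, or 0.00745%. At an unadjusted p under 0.05 there were 2 of the 8, Ptgs1 and Ptger2, both lower in the PCOS-MV group. The share of all genes at that unadjusted level is not given here, so nothing is read from this count. Ptger2 did not overlap between the groups (log2 fold change -0.57, 95% interval -1.05 to -0.10, adjusted p = 0.540; exact permutation p = 0.0286), and Ptgs1 did overlap (-0.35, -0.68 to -0.02, adjusted p = 0.571). Here too Ptger2 entered the test mainly through its control values, so no conclusion is drawn from its tests. A p that misses the threshold does not show equal levels, and the intervals were wide. That of Hpgd ran from -0.53 to 1.42 around 0.45, that of Ptgfr from -1.20 to 1.01 around -0.09, that of Ptgds from -0.63 to 0.80 around 0.09 and that of Ptges from -1.43 to 0.28 around -0.57. Ptger4 was at -0.45 (-1.02 to 0.11), Pla2g4a at -0.11 (-0.59 to 0.37), and Ptgs2 gave an exact permutation p of 0.0857. Without Control replicate 3, 0 of the 8 genes passed, and the log2 fold changes were 0.64 for Hpgd, 0.18 for Ptgfr, -0.39 for Ptger2, -0.24 for Ptgs1, -0.80 for Ptges, 0.13 for Ptgds, -0.23 for Ptger4 and 0.11 for Pla2g4a.

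**Figure D2:**
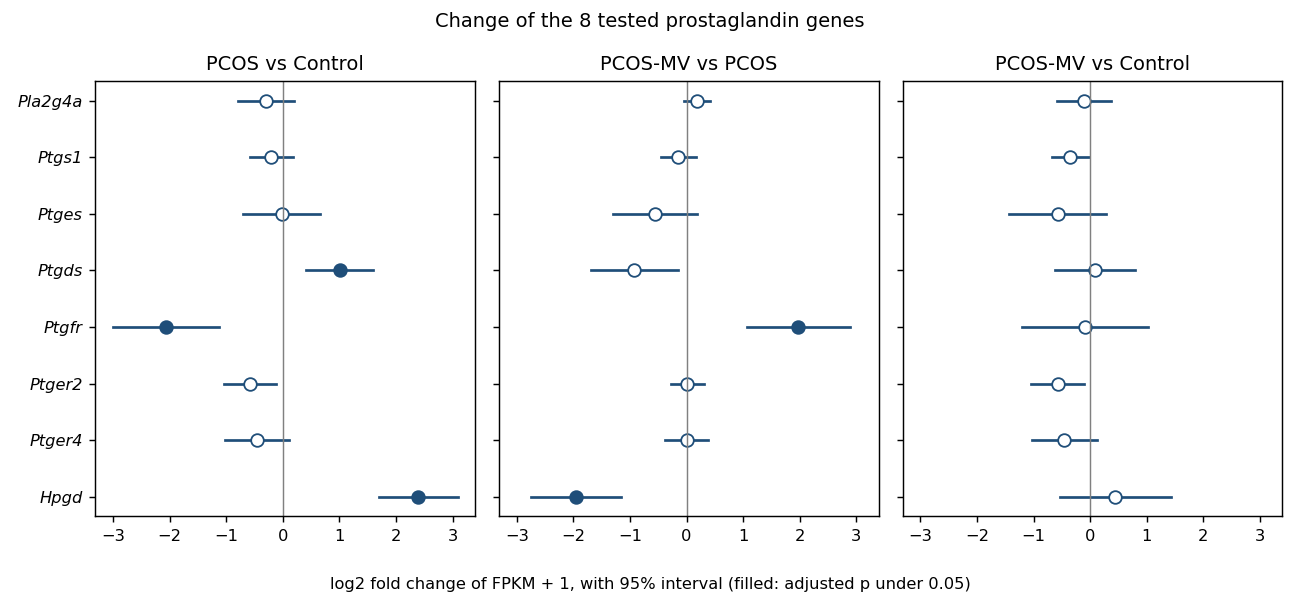
Log2 fold change of FPKM + 1 with its 95% interval (x axis) for the 8 tested genes in the 3 comparisons (filled circles: adjusted p under 0.05). Hpgd and Ptgfr were past the threshold in both comparisons with the PCOS group, Ptgds in the first of them, and no gene between the PCOS-MV and control groups.

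The other genes of the pathway were taken from 5 lists, in which 52 names were found and 40 genes were tested. Between PCOS and control, 16 of the 40 passed the test, or 40%, 8 higher and 8 lower, beside 27.4% of all genes tested. When Control replicate 3 was left out, 17 passed, among them the same 16 in the same direction. The counts include Cyp4f1, Cyp4f4 and Alox5, which passed the filter only through the PCOS group. That favours a higher PCOS level and raises the shares, so their calls are no evidence of a change. Between PCOS-MV and PCOS, 13 of 40 passed, or 32.5%, 6 higher and 7 lower, beside 25.7% of all genes. These shares are also the background of each list count given next, of which those of 2 to 3 of 8 genes lie near it. Between PCOS-MV and control, 0 passed the limma test and 6 had an unadjusted p under 0.05, a count without a background share over all genes. The median log2 fold changes of the 40 genes were -0.08 and 0.13 in the first 2 comparisons, against -0.03 and 0.03 over all genes.

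Of the genes for the release of arachidonate, 8 of 11 passed the test between PCOS and control, 3 higher and 5 lower. Pla2g2a, a secreted phospholipase A2, rose from 2.74 ± 1.40 to 10.04 ± 3.90 FPKM (SD, n = 4 each; log2 fold change 1.58, adjusted p = 0.00567). Mgll, the lipase that frees arachidonate from its monoacylglycerol, fell from 36.8 ± 6.70 to 15.4 ± 1.99 FPKM (-1.19, adjusted p = 0.000432). Anxa1, an inhibitor of phospholipase A2 activity, fell from 61.4 to 29.8 FPKM (-0.95, adjusted p = 0.0135), and Pla2g2d, another secreted form, from 5.97 to 2.55 FPKM (-0.96, adjusted p = 0.00492). Between PCOS-MV and PCOS, 4 of 11 passed. Mgll rose to 40.6 ± 17.4 FPKM (1.27, adjusted p = 0.00624) and Anxa1 to 52.8 FPKM (0.78, adjusted p = 0.00735), while the phospholipases Pla2g4b and Pla2g6 fell (-0.60 and -0.29, adjusted p = 0.0221 and 0.0424). Enzymes and an inhibitor of release thus moved within the same list.

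Of the other synthases, 2 of 8 passed between PCOS and control and 3 of 8 between PCOS-MV and PCOS. Akr1c3, listed for its prostaglandin F synthase activity, is the symbol under which RefSeq gives Akr1c18, the rat 20α-hydroxysteroid dehydrogenase. Its control values ran from 833 to 3428 FPKM, its PCOS values from 221 to 460 FPKM and its PCOS-MV values from 1466 to 4692 FPKM. Its log2 fold change was -2.52 between PCOS and control (adjusted p = 0.00281) and 2.81 between PCOS-MV and PCOS (adjusted p = 0.00152). Gstm2, a glutathione transferase for which prostaglandin E synthase activity is known, rose by 1.71 and fell by 1.598 (adjusted p = 0.000160 and 0.000434). Cbr1, a carbonyl reductase that acts on prostaglandin E2, rose by 1.30 between PCOS-MV and PCOS (adjusted p = 0.0365), with overlapping groups. Akr1c and Gstm genes belong to families of similar sequence, so the division of reads among them is uncertain.

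Of the other receptors, 3 of the 6 found were abundant enough to be tested, and 0 passed the limma test in either comparison. At an unadjusted p under 0.05 there were 0 in the first comparison and 1 in the second, again without a background share. Ptger3, the receptor of prostaglandin E2 that lowers cyclic AMP, was at 4.66 ± 3.28 FPKM in the control group, 2.08 ± 0.324 in the PCOS group and 1.34 ± 0.348 in the PCOS-MV group (SD, n = 4 each).

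Of 10 genes of transport and breakdown, 4 passed in each of the first 2 comparisons, 2 in each direction. Between PCOS and control the 2 higher were Cyp4f1 and Cyp4f4, whose calls were favoured by the filter. Slco2a1, the carrier that takes prostaglandins up for breakdown, fell from 19.8 ± 3.46 to 8.76 ± 0.663 FPKM (log2 fold change -1.08, adjusted p = 0.000304), while Hpgd, which acts on them inside the cell, rose. In the PCOS-MV group Slco2a1 was at 13.4 ± 4.49 FPKM, and its change from PCOS did not pass the test (0.51, adjusted p = 0.122). Abcc4, an exporter of prostaglandins, fell from 40.4 ± 3.66 to 15.2 ± 1.81 FPKM (-1.36, adjusted p = 4.95e-05) and was higher again in the PCOS-MV group at 46.4 ± 16.8 FPKM (1.497, adjusted p = 0.00154). Cyp4f4 and Cyp4f1, of a cytochrome P450 family that hydroxylates eicosanoids, had mean FPKM of 7.12 and 5.07 in PCOS libraries, of 0.161 and 0.700 in control libraries and of 0.769 and 0.510 in PCOS-MV libraries. Both passed the filter only through the PCOS group, which favours a higher PCOS level, so no test is given for them. They share sequence with relatives, which makes their separate levels uncertain.

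Of 8 other arachidonate enzymes, 2 passed in each comparison. Alox5, the lipoxygenase that starts leukotriene synthesis, had mean FPKM of 0.624 ± 0.222 in control, 3.37 ± 0.928 in PCOS and 1.09 ± 0.336 in PCOS-MV libraries (SD, n = 4 each), and it too passed the filter only through the PCOS group. Ephx1, the microsomal epoxide hydrolase, rose from 66.3 ± 11.8 to 486 ± 48.3 FPKM (2.87, adjusted p = 7.09e-06) and fell to 57.6 ± 37.9 FPKM (-3.30, adjusted p = 0.00105). Both belong to branches of arachidonate metabolism that do not pass through the cyclooxygenases.

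Of 14 tested genes of ovulation and the LH response, 4 passed between PCOS and control, 1 higher and 3 lower, and 7 between PCOS-MV and PCOS, 4 higher and 3 lower. The first of these shares, 28.6%, lies near the background, and without Control replicate 3 the count was 6, 2 higher and 4 lower. Lhcgr, the LH receptor, which is also in the luteal list, was higher by 1.39 in log2 fold change in the first and fell by 1.89 in the second (adjusted p = 0.0104 and 0.0269). Runx2, a transcription factor of luteinizing cells, fell from 42.5 ± 11.4 to 6.81 ± 2.30 FPKM (-2.48, adjusted p = 0.000147) and rose to 43.2 ± 12.5 FPKM (2.495, adjusted p = 0.000338). Adamts1, a protease of follicle rupture, fell by 1.33 and rose by 1.12 (adjusted p = 0.0112 and 0.0162). Cebpb, a transcription factor of the LH response, fell by 1.06 (adjusted p = 0.00198) between PCOS and control. Ereg, an epidermal growth factor ligand upstream of Ptgs2, had means of 1.02 FPKM in the control, 0.362 FPKM in the PCOS and 1.97 FPKM in the PCOS-MV group, and passed the filter through the last of these. That favours a higher PCOS-MV level, so no conclusion is drawn from its tests or its place in the counts. Pgr, the progesterone receptor that the LH surge induces, was at 13.0 FPKM in Control replicate 3 and at 0.0903 to 0.567 FPKM in the other 11 libraries, the same library that was high for Ptgs2.

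**Figure D3:**
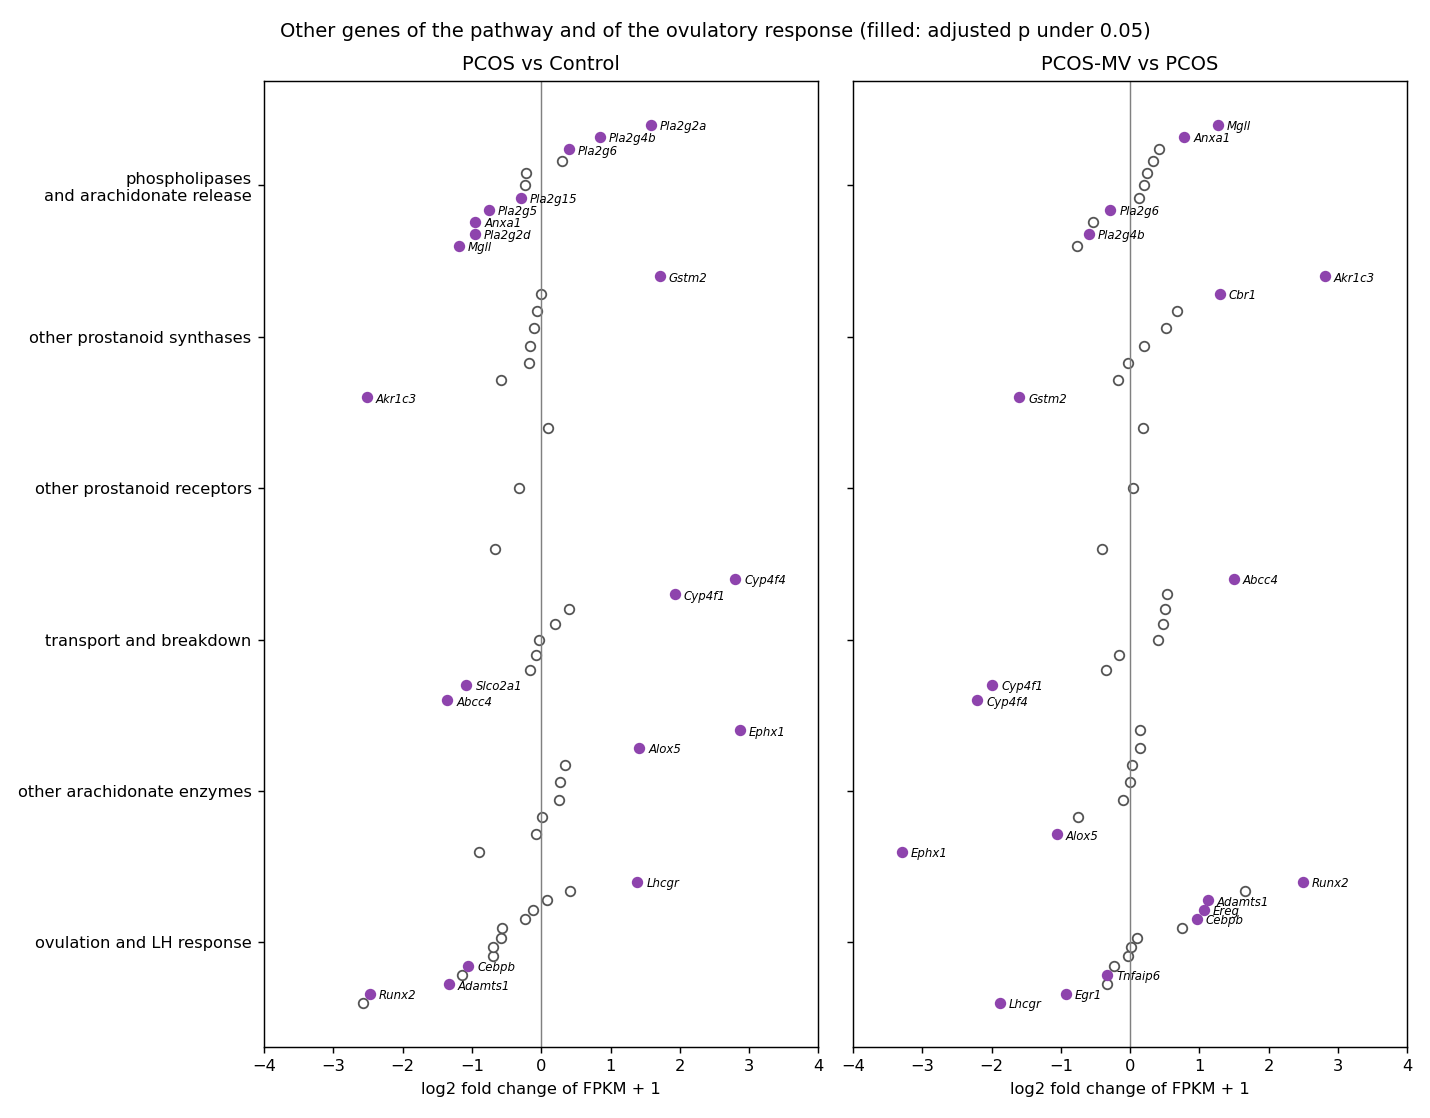
Log2 fold change of FPKM + 1 (x axis) for the tested genes reported here of the 5 other pathway lists and of the ovulation and LH list, between PCOS and control (left) and between PCOS-MV and PCOS (right), with 1 circle per gene and genes past an adjusted p of 0.05 filled and named. Both panels use the same PCOS libraries, and Akr1c3, Runx2, Ephx1 and the Cyp4f genes lay farthest from 0 among the filled circles. Cyp4f1, Cyp4f4 and Alox5 passed the filter only through the PCOS group, which favours a higher PCOS level, so their circles are no evidence of a change. Ereg passed it through the PCOS-MV group, so its circle in the right panel is no such evidence either.

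Likeness across the 12 libraries was described by Pearson's r of log2(FPKM + 1), among genes with a symbol and a mean of at least 1 FPKM. These points share the 3 group means and the composition of each ovary, so no p is given. For Ptgfr the 3 most alike genes were Akr1c3 (r = 0.979, Spearman's rho 1), Mogat1, a monoacylglycerol acyltransferase (0.978), and Fam110b (0.974). The order of the 12 libraries by Akr1c3 was thus the same as by Ptgfr, within groups too. For Hpgd they were Papss2, which makes the donor for sulfation (0.976), Slc46a1, a folate carrier (0.962), and Lpar1, a receptor of lysophosphatidic acid (0.957). For Ptges they were Nasp, a histone chaperone (0.969), the cyclin gene Ccnf (0.929) and Fam207a (0.913). For Ptger2 they were Rgs1 (0.960), Cfap70 (0.939) and Tmem212 (0.932), of which Cfap70 belongs to motile cilia, and Tmem212, like Ptger2, had a higher mean in the control group that holds Control replicate 3 (4.50 FPKM against 0.236 in the PCOS group and 0.117 in the PCOS-MV group).

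Among the 9 genes themselves, Ptgfr and Hpgd had r = -0.57 (rho -0.50) over the 12 libraries, but r = 0.708 once each group's mean was removed. In the control and PCOS-MV groups the library with the most Ptgfr also held the most Hpgd, and in the PCOS group it did not. Ptges and Ptgfr had r = -0.56 (rho -0.55) over the 12 libraries and -0.79 with group means removed. In the control group the order of the 4 libraries by Ptges was the exact reverse of that by Ptgfr. Ptgs2 and Pla2g4a, the neighbours on chromosome 13, had r = 0.817 over the 12 libraries, of which Control replicate 3 was the highest for both, and rho = 0.049.

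**Figure D4:**
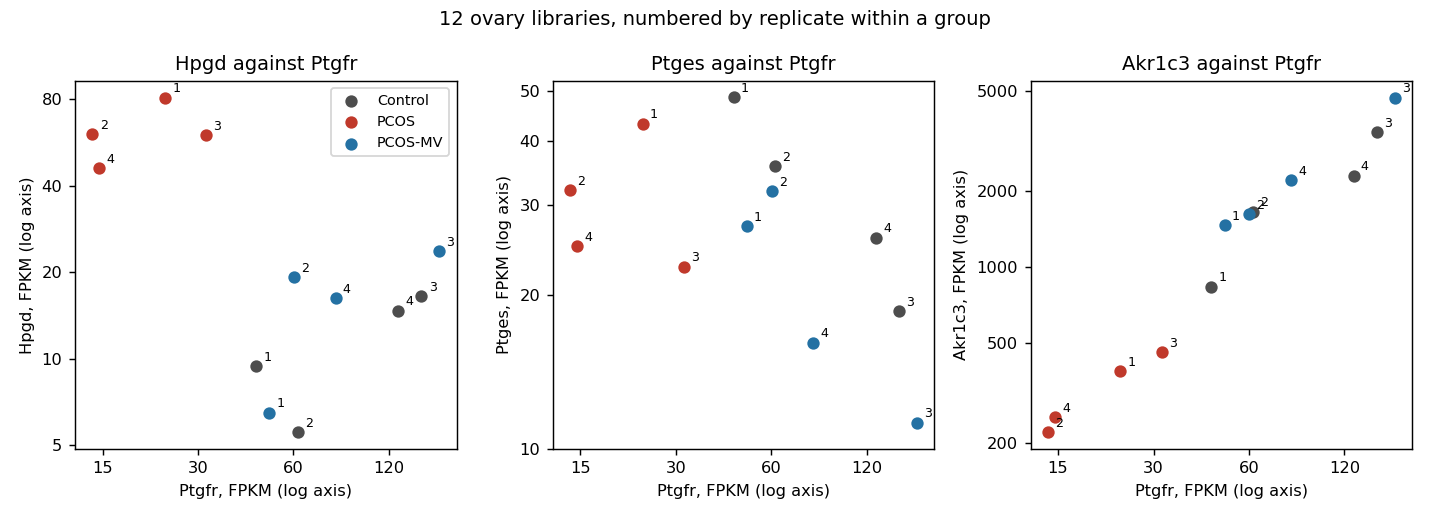
FPKM of Hpgd, Ptges and Akr1c3 (y axes) against FPKM of Ptgfr (x axes) in the 12 libraries, all axes logarithmic, points coloured by group and numbered by replicate within the group. The PCOS libraries stood apart in the Hpgd panel, Ptges was lower where Ptgfr was higher within the control group, and Akr1c3 followed the order of Ptgfr over all 12 libraries.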

How the data were processed

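Ovarian RNA of 12 rats, 4 per group, was sequenced as 150-base read pairs with 1 library per rat. Groups and replicate numbers were taken from the sample titles. The authors filtered the reads, aligned them, counted fragments per gene and deposited FPKM values. The paper's methods name HISAT2 and featureCounts, the submitters' processing notes name STAR 2.5.1b and HTSeq 0.6.0, and the build is not given in the sources used here. The authors' fold change and p-value columns, which come from DESeq2, were not used.

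One line per gene was kept of 26928 transcript lines (0 genes differed between lines), which left 19730 genes, and 0 library pairs were identical. Only 19.3% to 21.8% of the low values lay within 0.02 of whole reads, so no count test was run. The 13430 genes that averaged 1 FPKM or more entered limma 3.58.1 (R 4.3.3, lmFit and eBayes with trend) on the log2(FPKM + 1) scale, 2 groups per fit, with Benjamini-Hochberg adjustment over all of them and a threshold of 0.05. This scale understates changes of low genes. Single genes were also compared by exact two-sided permutation tests. p-values measure the spread between rats. On simulated data for PCOS against control (13430 genes, 200 changed by 1.5 on the log2 scale) 92.5% were recovered and 4.97% of calls were false. Noise was drawn separately for each gene and few genes were changed, unlike in the real data, so these rates need not hold there. Plots were drawn with matplotlib 3.10.9 in Python 3.11.15.

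The genes and lists were chosen with earlier results of these data known. Named were all listed members, of each other list and comparison the 4 largest changes past the threshold, and the 3 genes most like a member. Insl3, Cyp17a1, Ptger3, Pgr, Tnfaip6, Nr4a1, Egr1, Rgs2, the single adipocyte markers and the means of Tmem212 were added after their values were seen. Of 152 list names, 141 were found, and 1 gene of the transport and breakdown list is counted there but not reported here.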

Additional observations from a re-analysis of the deposited data

Results flagged for a closer look

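In each group of 4 libraries, the highest or lowest value of a gene was examined for its distance from the others, as a share of the group's range, against Dixon's 95% critical value. Among 27 groups of values of the 9 genes, 2 passed, where chance at 1 in 20 gives 1.35.

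The first was Ptgs2 in Control replicate 3, at 1.76 FPKM against 0.115 to 0.284 FPKM in the other control libraries, with a gap of 0.897 of the range. The same library held 21.1 FPKM of summed oviduct markers, 180 FPKM of surface epithelium markers and the highest Ptger2, Ptger4, Ptgs1 and Pla2g4a of the 12 libraries. Of the ovulation and LH list, it held the highest Pgr (13.0 FPKM), Tnfaip6 (9.76), Nr4a1 (79.6), Egr1 (71.4) and Rgs2 (69.7) of the 12 libraries. Not all of that list went this way, since its Ereg (0.427 FPKM) and Lhcgr (28.7) were the lowest of the control group. The part of these cells, or of an LH response, in its Ptgs2 level was not tested.

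The second was Ptgds in PCOS-MV replicate 2, at 12.1 FPKM against 4.07 to 5.19 FPKM in the other PCOS-MV libraries, with a gap of 0.861 of the range. In that library surface epithelium markers summed to 72.7 FPKM against 22.7 to 32.8 FPKM in the other PCOS-MV libraries, leukocyte markers to 84.1 against 65.5 to 68.9 FPKM and mast cell markers to 0.766 against 0.271 to 0.497 FPKM. Their part in the Ptgds level was not tested.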

How the results depend on the processing

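The counts of the prostaglandin genes and of other pathway genes past the threshold stayed within 1.5 times of those reported under every alternative run, namely a pseudocount of 0.1, no filter or a filter of 5 FPKM, 1 model for all 12 libraries, median ratio scaling, quantile normalization, the replicate block and each library left out, and for the prostaglandin genes in the first 2 comparisons a 2-fold threshold. With 1 library left out, 2 to 4 of the 8 genes passed between PCOS and control, 2 to 3 between PCOS-MV and PCOS and 0 between PCOS-MV and control. Uncalled values near 0 changed sign: Ptges between PCOS and control (0.0134 with median ratio scaling, 0.0293 with quantile normalization, -0.25 to 0.20 with a library left out), and between PCOS-MV and PCOS Ptger2 (-0.00019, -0.0096, and -0.0666 to 0.0746) and Ptger4 (-0.0153 with median ratio scaling, and -0.12 to 0.0897). Between PCOS-MV and control, with a library left out, they were Ptgds (-0.22 to 0.24), Ptgfr (-0.45 to 0.18) and Pla2g4a (-0.23 to 0.11). Ptger2 passed between PCOS and control in 1 model for all libraries (adjusted p = 0.0376), with a pseudocount of 0.1 (-0.98, adjusted p just under 0.05) and without Control replicate 1 (adjusted p = 0.0463). Since Ptger2 entered the test mainly through its control values, no conclusion is drawn from these calls. The cause of these changes was not tested.

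The numbers 1 to 4 were not shown to pair rats: deviations from the group means correlated by -0.053 to 0.216 between libraries of the same number, and by -0.206 to 0.204 between others. For PCOS against PCOS-MV libraries the same-number values were 0.035 to 0.172, 3 of 4 of them over 0.1, against -0.157 to 0.038 for the others, and 7 of 8 libraries correlated best with their own number, a hint from the data and not from the design. With the replicate block, 2 of the 8 genes passed between PCOS and control (Ptgds adjusted p = 0.0545), 3 between PCOS-MV and PCOS (Ptgds adjusted p = 0.00603) and 0 between PCOS-MV and control, and 15, 14 and 0 of the 40 other pathway genes. Depth limits Ptgs2 and Ptger2 most.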
